A study of Mus musculus with 6 samples.

Results

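Transcripts of the BCL2 family, the proteins that decide between survival and death of a cell at the mitochondrion, were followed in CD4+CD8+ double-positive thymocytes with and without Flvcr. The members were all probes whose platform gene symbol was Bcl2, Bcl2l1, Mcl1, Bcl2l11, Bax, Bak1, Bid, Bad, Bbc3 or Bmf. This gave 18 of the 45281 probes on the array, for 9 of the 10 genes. Bax, an effector of cell death, carried 0 probes under that symbol and is not analysed here. The study hybridised total RNA of sorted double-positive thymocytes to Illumina bead arrays, with 3 arrays of Flvcr-/- cells and 3 arrays of Flvcr+/+ cells. Both groups came from thymuses of mice on a C57BL/6 background. The age of the mice, the promoter or Cre behind the deletion, the number of animals per sample and any treatment are not given in the sources used here. The labels do not say whether a group's samples are separate animals. The p-values therefore cover only sample-to-sample spread, part of which may be technical.

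BCL2 family proteins fall into 3 kinds. Survival proteins (BCL2, BCL-xL and MCL1) hold the effectors BAX and BAK in check, and BH3-only proteins (BIM, BID, BAD, PUMA, BMF) release that hold, after which the effectors open the outer mitochondrial membrane and cytochrome c leaves to start the caspases. In the mouse thymus BCL-xL and MCL1 are known to keep double-positive cells alive, BCL2 is known to be low at this stage and to return in mature cells, and BIM is known for its part in deleting self-reactive thymocytes. The FLVCR1 protein is known for carrying heme out of the cell.

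Values below are log2 levels after background correction and quantile normalization unless called intensities, which are the deposited linear values. A probe was tested if its detection p-value, the chance of such a signal from background alone, was under 0.05 on at least 3 arrays, and a call needed an adjusted p under 0.05. The arrays had 15307 to 15792 detected probes (33.8% to 34.88%) and median intensities of 126.1 to 149.1. Flvcr1 read 9.92, 10.45 and 10.13 on the Flvcr-/- arrays and 11.01, 11.28 and 10.93 on the Flvcr+/+ arrays, a log2 fold change of -0.91 (95% interval -1.24 to -0.57). The position of its probe relative to the deletion was not known here, and the gap is therefore no strict check of the labels. Of 10 double-positive markers 8 were tested, among them Cd8b1 at 14.83 ± 0.16 in Flvcr-/- and 14.88 ± 0.02 in Flvcr+/+ cells (SD, n = 3 each), while Cd8a was detected on 0 arrays by either of its 2 probes. Flvcr-/- replicate 1 and Flvcr+/+ replicate 3 had low Xist and a bright Y-linked Eif2s3y probe, a male pattern, and the other 4 arrays had a female pattern. Each group thus held both patterns, so its arrays were not all repeats of the same animal. Whether arrays of the same pattern came from separate animals is not known here.

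No BCL2 family transcript passed limma's test for a difference between the genotypes. Of the 18 probes 16 were tested, and 0 passed, with an adjusted p of 0.9997 for each. The background was 26 calls among 15448 tested probes (percent called 0.168), so 0 of 16 is no result about the family. At an unadjusted p under 0.05 there were also 0 of 16, where the percent among all tested probes was 4.44. The 26 calls over the whole table were 9 without Flvcr-/- replicate 2, 9 without Flvcr-/- replicate 3, 7 without Flvcr+/+ replicate 1, 6 without Flvcr+/+ replicate 2 and 14 without Flvcr+/+ replicate 3, while the count of family probes called stayed at 0 in each of these fits. In bulk RNA a lower share of some cells and less RNA per cell cannot be told apart, which holds for every value below.

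The family's differences were small beside its own spread. Log2 fold changes ran from -0.35 to 0.26 with a median of 0.00, 7 above and 9 below 0 (over all tested probes 50.6 percent lay above), and the median size of the difference was 0.12 against 0.13 over all tested probes. The median SD within groups was 0.22 for the 16 probes and 0.23 over all. In 1 of the 16 probes the groups did not overlap (6.25%), against 9.24 percent among all tested probes. The 95% intervals of all 16 probes lay inside a 2-fold change in either direction, and those of 10 probes inside 1.5-fold. The intervals are not adjusted for the number of probes. Folds of dim probes are understated on this log2 scale, so their intervals do not bound the true change.

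**Figure D1:**
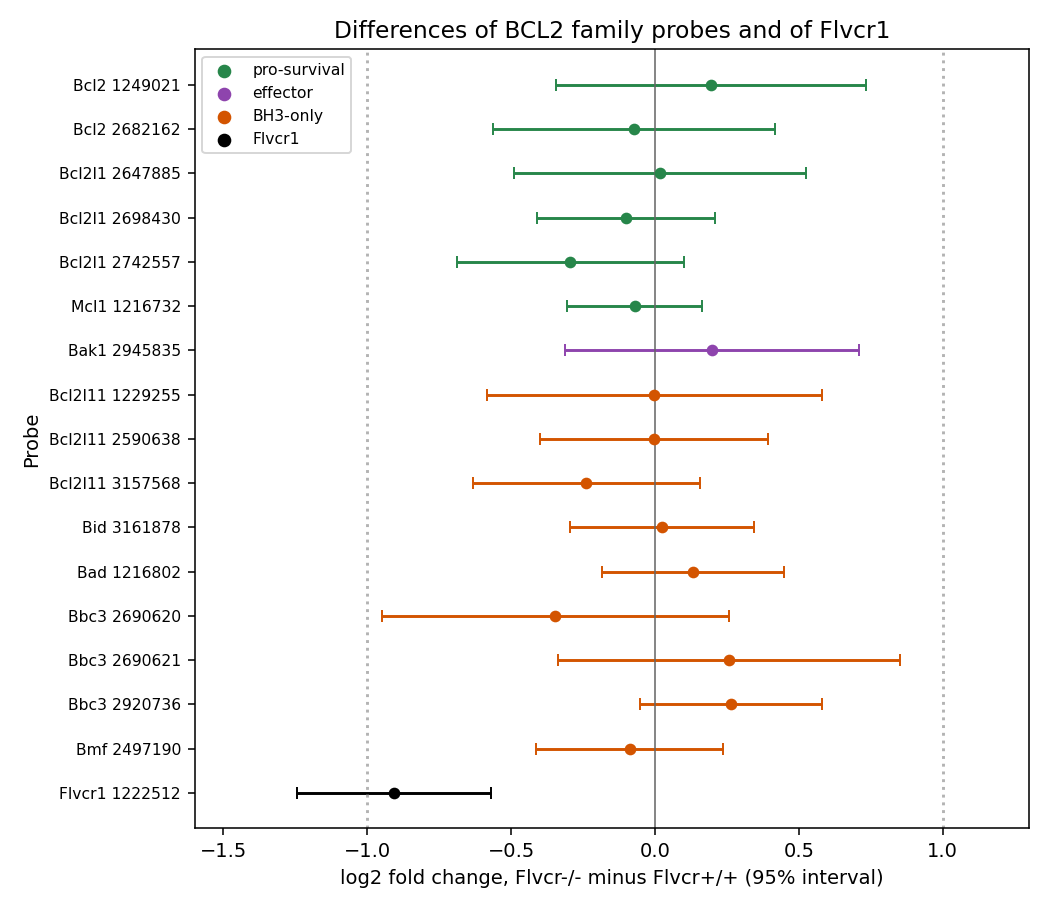
Log2 fold changes (Flvcr-/- minus Flvcr+/+, x axis) of the 16 tested probes of 9 BCL2 family genes, coloured by role, with 95% intervals from limma, and of Flvcr1 in black (3 arrays per group); dotted lines mark a 2-fold change. All 16 family intervals cross 0 and stay inside the dotted lines, while that of Flvcr1 runs from -1.24 to -0.57.

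Among the survival genes, Mcl1, whose short-lived protein is needed by thymocytes at several stages, gave a steady signal far above background. Its intensities were 7841.3, 6848.3 and 7947.0 on Flvcr-/- arrays and 8669.5, 9861.6 and 6235.2 on Flvcr+/+ arrays. After normalization these became log2 levels of 12.99, 12.81 and 12.83 in Flvcr-/- and 13.00, 13.09 and 12.76 in Flvcr+/+ cells. The groups overlapped, with both the highest and the lowest array among the Flvcr+/+ samples. The log2 fold change was -0.07 (SE 0.110, 95% interval -0.31 to 0.16), an interval that runs from 0.81-fold to 1.12-fold.

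Bcl2l1, which encodes BCL-xL and by other splicing the death-promoting short form BCL-xS, was read by 3 probes of the same reference transcript. The brightest, ILMN_2698430, stood at 9.66, 9.54 and 9.47 in Flvcr-/- and 9.62, 9.75 and 9.59 in Flvcr+/+ cells. Its groups overlapped, and the log2 fold change was -0.10 (SE 0.145, 95% interval -0.41 to 0.21). ILMN_2742557 was the 1 tested family probe whose groups did not overlap, with 7.55, 7.56 and 7.40 in Flvcr-/- and 7.73, 7.83 and 7.83 in Flvcr+/+ cells. All 3 Flvcr-/- arrays were lower, by 0.29 on the log2 scale on average (SE 0.185, 95% interval -0.69 to 0.10), and the probe did not pass (unadjusted p = 0.134, adjusted p = 0.9997 by limma). The remaining probe, ILMN_2647885, stood at 7.90, 8.10 and 7.58 in Flvcr-/- cells, against 8.15, 7.32 and 8.06 in Flvcr+/+ cells and gave a log2 fold change of 0.02. The 3 probes thus ran 1 above and 2 below 0, and the isoforms each detects were not known here.

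Bcl2, the founding survival gene of the family, was detected on all 6 arrays by both of its probes, in a cell stage known for low BCL2. ILMN_2682162 stood at 8.56, 8.04 and 8.38 in Flvcr-/- cells, against 8.52, 8.78 and 7.89 in Flvcr+/+ cells. The Flvcr+/+ arrays alone spanned 0.89, far wider than the gap between group means, and the log2 fold change was -0.07 (SE 0.230, 95% interval -0.56 to 0.42). ILMN_1249021, a dimmer probe with intensities of 157.9 to 208.9, read 6.30 ± 0.14 in Flvcr-/- and 6.11 ± 0.31 in Flvcr+/+ cells (SD, n = 3 each), and its log2 fold change was 0.19 (95% interval -0.34 to 0.73). A further 2 probes that carry the old symbol D630044D05Rik, now placed in the Bcl2 gene, were detected on 0 arrays. Markers of mature single-positive cells, in which BCL2 is known to return, read lower in the same comparison. Of the 4 tested genes 0 were called, where the percent called among all genes was 0.148. The mean of the 4 tested of 6 markers was 6.85 to 7.09 in Flvcr-/- and 7.30 to 7.67 in Flvcr+/+ arrays. Their part in the Bcl2 values was not tested.

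Of the genes compared, the 3 whose values over the 6 arrays lay closest to those of the brighter Bcl2 probe, after each was centred on its mean, were Sbsn, Mycbp2 and Sox4. Their root mean square differences from Bcl2 were 0.09, 0.10 and 0.10 log2 units among 8807 genes compared. Bcl2 was taken because its range of 0.89 was the largest among the brightest probes of the family's genes. The match describes 6 arrays that share 1 normalization.

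**Figure D2:**
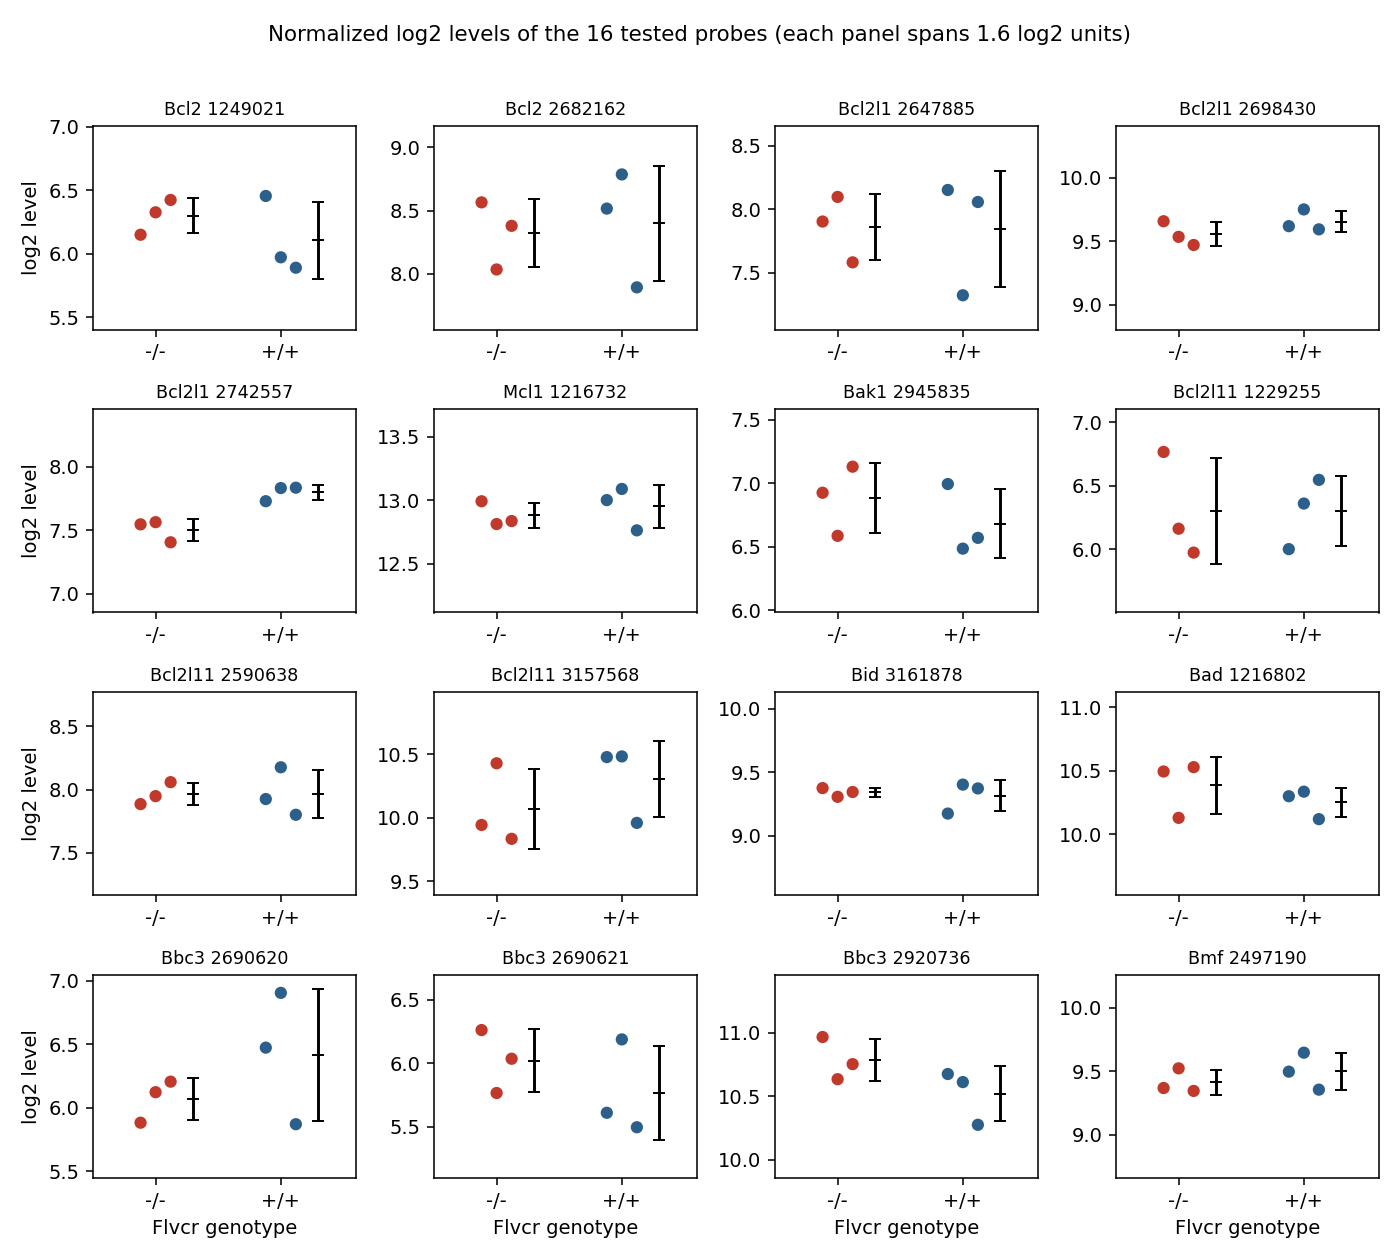
Normalized log2 levels of the 16 tested probes on each array, Flvcr-/- left and Flvcr+/+ right, with mean ± SD (n = 3 each); each panel spans the same number of log2 units, so heights compare between panels while levels do not. Groups overlap in all panels but that of Bcl2l1 probe ILMN_2742557.

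The tested effector gene was Bak1, which encodes the pore-forming protein BAK. Its probe had intensities of 227.8, 198.6 and 265.8 in Flvcr-/- and 249.3, 221.5 and 188.4 in Flvcr+/+ cells. The log2 levels were 6.92, 6.58 and 7.13 in Flvcr-/- and 6.99, 6.48 and 6.57 in Flvcr+/+ cells. These overlap, with an SD of 0.28 in Flvcr-/- and 0.27 in Flvcr+/+ cells. The log2 fold change was 0.20 (SE 0.240, 95% interval -0.31 to 0.71), and it was 0.07 to 0.35 with 1 array left out.

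The BH3-only genes varied in both directions, with 0 calls among their 9 tested probes. The percent called among all tested probes was 0.168, so this count is no result about these genes. Bcl2l11, which encodes BIM, had 3 tested probes, all with log2 fold changes below 0. The brightest, ILMN_3157568, stood at 9.94, 10.43 and 9.83 in Flvcr-/- and 10.48, 10.48 and 9.96 in Flvcr+/+ cells. Replicate 3 of the Flvcr+/+ group lay among the Flvcr-/- arrays, and the log2 fold change was -0.24 (SE 0.185, 95% interval -0.63 to 0.16). The other 2 tested probes gave -0.0034 and -0.0018, with SDs within groups of 0.09 to 0.41.

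Bbc3, which encodes PUMA, the BH3-only protein known as a target of p53, showed the widest disagreement between tested probes of 1 gene. Its bright probe ILMN_2920736 had intensities of 2036.2, 1608.6 and 1972.1 in Flvcr-/- and 1814.2, 1871.4 and 1203.4 in Flvcr+/+ cells. Log2 levels were 10.97, 10.64 and 10.75 in Flvcr-/- and 10.68, 10.61 and 10.28 in Flvcr+/+ cells, so that Flvcr-/- replicate 2 lay just under the highest Flvcr+/+ array. The log2 fold change was 0.26 (SE 0.147, 95% interval -0.05 to 0.58, unadjusted p = 0.0941, adjusted p = 0.9997 by limma), the smallest unadjusted p of the 16 tested probes. Leaving out 1 array gave 0.14 to 0.34. ILMN_2690621 also read higher, by 0.26, while ILMN_2690620 read lower at -0.35 (95% interval -0.95 to 0.26). With 1 array left out these were 0.12 to 0.47 and -0.62 to -0.10. ILMN_2690621 and ILMN_2690620 were dim, with intensities of 145.3 to 254.1, and without background correction their log2 fold changes shrank to 0.09 and -0.15.

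The remaining BH3-only genes had 1 tested probe each. Bad, whose protein is held by 14-3-3 proteins when phosphorylated, stood at 10.50, 10.13 and 10.53 in Flvcr-/- and 10.30, 10.34 and 10.12 in Flvcr+/+ cells, with a log2 fold change of 0.13 (SE 0.148, 95% interval -0.18 to 0.45). Bid, which links death receptors to the mitochondrion after cleavage by caspase 8, stood at 9.38, 9.31 and 9.35 in Flvcr-/- and 9.18, 9.40 and 9.37 in Flvcr+/+ cells, a log2 fold change of 0.03 (95% interval -0.29 to 0.35). The range of this Bid probe over the 6 arrays, 0.23, was the smallest of the 16 tested family probes. Bid's untested probe, given below, had a range of 1.205. Bmf, known for its part in death after loss of cell attachment, stood at 9.37, 9.52 and 9.35 in Flvcr-/- and 9.50, 9.65 and 9.36 in Flvcr+/+ cells, with a log2 fold change of -0.09 (95% interval -0.41 to 0.24). For each of these tested probes the groups overlapped.

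A further 2 family probes were left out of the test because too few arrays detected them, and they read in opposite directions. Bid probe ILMN_2757287 had intensities of 174.8, 148.4 and 156.4 in Flvcr-/- and 140.3, 146.1 and 124.9 in Flvcr+/+ cells and was detected on 2 Flvcr-/- and 0 Flvcr+/+ arrays. Its log2 means were 5.61 in Flvcr-/- and 4.88 in Flvcr+/+ cells. On these arrays the Flvcr-/- mean was at least 1.17-fold above a floor for the Flvcr+/+ arrays. On each dim array the floor is the probe's own signal, or the dimmest detected signal if that is larger. Such a bound carries no sampling error and is no lower limit of the true difference. Bcl2l11 probe ILMN_3078327 had intensities of 121.3, 135.8 and 146.1 in Flvcr-/- and 150.9, 180.1 and 142.7 in Flvcr+/+ cells and was detected on 0 Flvcr-/- and 2 Flvcr+/+ arrays. Its log2 means were 4.91 in Flvcr-/- and 5.44 in Flvcr+/+ cells. By the same measure the Flvcr+/+ mean was at least 1.02-fold above the floor for the Flvcr-/- arrays. With all 45281 probes tested, the unadjusted p by limma was 0.0128 for the Bid probe and 0.0564 for the Bcl2l11 probe, and the adjusted p was 0.9904 for both. For both probes the groups did not overlap. No share of such probes was computed over all 45281 probes, so nothing is read from this. Each gene's brighter probe, given above, did not pass either.

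**Figure D3:**
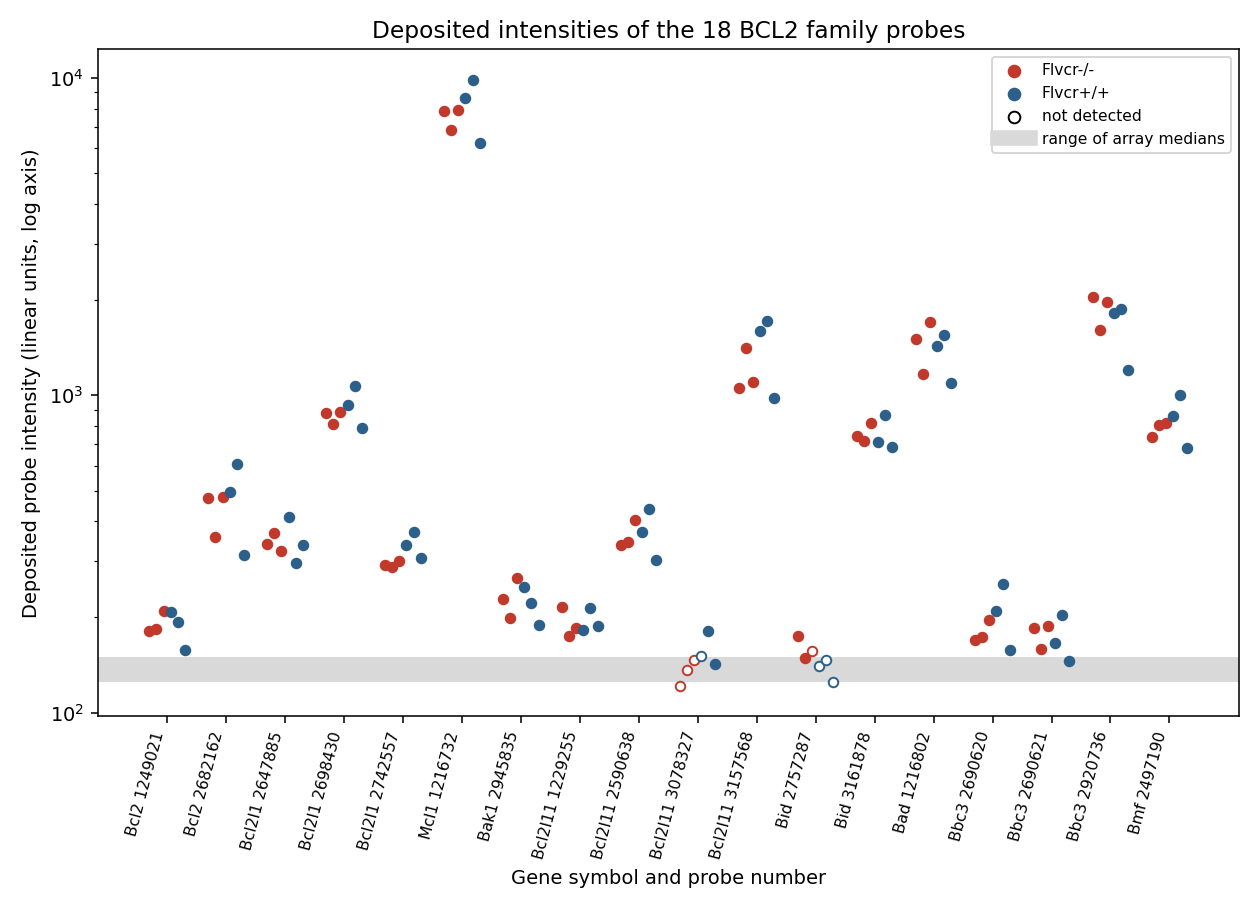
Deposited intensities of the 18 BCL2 family probes on a log axis, 3 Flvcr-/- arrays left of 3 Flvcr+/+ arrays for each probe; open circles were not detected, and the grey band is the range of array medians (126.1 to 149.1). The 2 probes with open circles lie at or near the array medians, and Flvcr+/+ replicate 3 has the lowest intensity for 13 of the 16 tested probes.

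Extreme values came more often from Flvcr+/+ arrays, which held the highest value for 11 of 16 probes and the lowest for 11 of 16. No share over all tested probes was computed, so nothing is read from such counts about the family. In the deposited intensities, Flvcr+/+ replicate 3, the array with the lowest median, was lowest for 13 of the 16 tested probes. After normalization it was still lowest for 8 of 16, and Flvcr+/+ replicate 2 was highest for 8 of 16. Flvcr-/- replicate 3 was lowest for 5 probes and Flvcr-/- replicate 1 highest for 3.

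The survival genes were set against the death genes on each array by subtracting the mean of 6 pro-death genes from the mean of 3 pro-survival genes, each gene being the mean of its tested probes. Because probes differ in brightness, the size of this value has no meaning of its own, and only its difference between arrays can be read. It was 0.89, 0.92 and 0.80 on Flvcr-/- arrays and 1.05, 0.90 and 0.93 on Flvcr+/+ arrays. The groups overlapped, since Flvcr-/- replicates 1 and 2 lay beside Flvcr+/+ replicates 2 and 3. The means were 0.87 ± 0.06 in Flvcr-/- and 0.96 ± 0.08 in Flvcr+/+ cells (SD, n = 3 each), a difference of -0.09 on the log2 scale. Survival genes averaged 9.50 ± 0.06 in Flvcr-/- and 9.54 ± 0.14 in Flvcr+/+ cells, and death genes 8.63 ± 0.08 in Flvcr-/- and 8.59 ± 0.12 in Flvcr+/+ cells. The difference was -0.04 without Flvcr+/+ replicate 1, the array with the highest value, and -0.05 without Flvcr-/- replicate 3, the lowest. No p is given for this score, since the members were chosen with results of these data known.

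**Figure D4:**
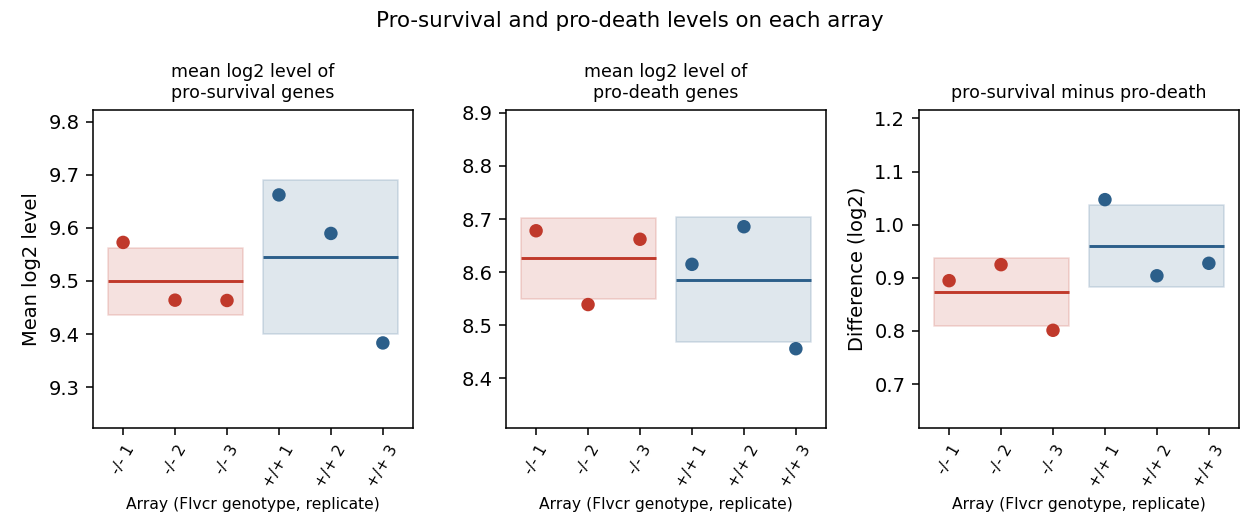
Mean log2 level of the 3 pro-survival genes, of the 6 pro-death genes, and their difference on each array (Flvcr-/- left, Flvcr+/+ right), with group means as lines and SD as shaded bands (n = 3 each). The difference averages 0.87 in Flvcr-/- and 0.96 in Flvcr+/+ cells, and the groups overlap.

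Other genes of the apoptosis pathway were read in 5 lists of 77 genes, of which 70 had a probe and 56 were tested. Of the 56, 0 passed by limma over all probes, where the percent called was 0.148 among all 8808 tested genes, each by its brightest probe. At an unadjusted p under 0.05 there were 3 (5.36%, against 4.63 percent of all genes), and groups did not overlap for 5 (8.93%, against 9.59 percent). Nothing is read from the last count, since Xiap, 1 of the 5, passed the detection filter only through the Flvcr-/- arrays. The median log2 fold change of the 56 was 0.00, against 0.01 over all genes, and 30 lay above 0 and 26 below (over all genes 51.8 percent lay above). Xiap is 1 of the 30, so nothing is read from this count either. Trp53, which encodes p53, carried 0 probes under its symbol and is not analysed here, and the BH3-only gene Pmaip1 (NOXA) was detected on at most 2 arrays by its 3 probes.

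Of 18 further BCL2 relatives 10 were tested and 0 passed (percent called 0.148 among all genes), with 6 above and 4 below 0. The median was 0.07, and it was -0.03 without Flvcr-/- replicate 3 and -0.02 without Flvcr+/+ replicate 1. Bcl2l2, which encodes the survival protein BCL-w, had 5 probes, and only the brightest tested is given here. It stood at 6.91, 6.98 and 7.29 in Flvcr-/- and 6.69, 6.52 and 6.40 in Flvcr+/+ cells. All 3 Flvcr-/- arrays were higher, with a log2 fold change of 0.52 (SE 0.221, 95% interval 0.05 to 1.00), and the gene did not pass (adjusted p = 0.9997 by limma). Bcl2a1b and Bcl2a1d, near-identical copies of the survival gene A1 of blood cells that a probe may not tell apart, read lower. Bcl2a1b stood at 6.27, 5.74 and 6.04 in Flvcr-/- and 6.51, 6.91 and 6.40 in Flvcr+/+ cells, with a log2 fold change of -0.59 (SE 0.253, 95% interval -1.13 to -0.05, adjusted p = 0.9997 by limma). Bcl2a1d gave -0.42 (SE 0.253), again with groups that did not overlap. Markers of other blood cells varied in the same comparison. Cd74, the class II invariant chain of dendritic cells and B cells, stood at 5.80, 6.07 and 5.63 in Flvcr-/- and 7.07, 6.20 and 7.60 in Flvcr+/+ cells. It did not pass (adjusted p = 0.5589 by limma), and the other dendritic markers H2-Ab1 and Siglech gave -0.10 and -0.12. Over the 3 tested of 7 dendritic markers, array means overlapped and were 6.38 to 7.05 in Flvcr-/- and 6.89 to 7.22 in Flvcr+/+ cells, and Itgax, Flt3 and Zbtb46 were detected on 0 arrays. The B cell and plasma cell list had 2 of 7 members tested, Igkc and Cd79b, whose array means were 9.36 to 9.51 in Flvcr-/- and 10.74 to 11.13 in Flvcr+/+ cells. Of these Igkc passed, with a log2 fold change of -3.36 (adjusted p = 5.091e-07 by limma), and Cd79b read 0.26, while Ms4a1, Pax5 and Jchain were detected on 0 arrays. The 1 tested macrophage marker, Lyz2, gave 0.05. Of 5 NK and gamma-delta markers 2 were tested, Nkg7 and Prf1, and neither passed. Their array means were 7.67 to 7.77 in Flvcr-/- and 8.14 to 8.56 in Flvcr+/+ cells. Nkg7 was dim, at 4.92 ± 0.15 in Flvcr-/- and 5.98 ± 0.67 in Flvcr+/+ cells (SD, n = 3 each). Prf1 gave a log2 fold change of -0.08. The erythroid markers Hba-a1 and Hbb-b1 gave 0.03 and -0.11. Array means of these 2 were 7.82 to 12.44 in Flvcr-/- and 10.14 to 12.02 in Flvcr+/+ cells. The part of such cells in the A1 values was not tested.

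Downstream of the mitochondrion no tested gene passed, where the percent called among all genes was 0.148. Among 13 tested of 17 apoptosome, caspase and mitochondrial genes, 7 lay above and 6 below 0, with a median of 0.00 and a range of -0.26 to 0.13. The smallest unadjusted p values were those of Dffa, the inhibitor of the nuclease that cuts DNA in dying cells (-0.26, SE 0.211), Diablo, a mitochondrial inhibitor of caspase inhibitors (-0.12, SE 0.133), and Casp6, an executioner caspase (0.13, SE 0.146). None of the 3 passed, and 0 genes of this list had groups that did not overlap, against 9.59 percent of all genes. With 13 genes nothing is read from these counts. Apaf1, the scaffold of the apoptosome, and Cycs, cytochrome c, stood at 0.01 and 0.00; both were named after their values were seen.

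All 5 caspase inhibitor genes were tested, 2 above (1 of them Xiap) and 3 below 0 with a median of -0.06. Xiap, which blocks caspases directly, passed the detection filter only through the Flvcr-/- arrays, with 5.40, 5.51 and 6.14 in Flvcr-/- and 5.14, 5.04 and 5.17 in Flvcr+/+ cells. It was detected on 3 Flvcr-/- and 0 Flvcr+/+ arrays, and the Flvcr-/- mean was 1.23-fold above the floor for the Flvcr+/+ arrays. As for the Bid probe above, this bound carries no sampling error and is no lower limit of the true difference. The fitted log2 fold change was 0.57 (95% interval -0.06 to 1.19, adjusted p = 0.9997 by limma), and the interval includes 0. Nothing is read from this fit, since the probe was tested only because of the Flvcr-/- arrays. Birc6, a large ubiquitin ligase of this family, gave 0.33 (SE 0.323) with detection on 2 of the Flvcr+/+ arrays, and Birc5, the division-linked survivin gene, gave -0.12 (SE 0.241).

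In the death receptor arm 9 of 11 genes were tested, 6 above and 3 below 0, with a median of 0.06 (-0.01 without Flvcr-/- replicate 3) and a range of -0.10 to 0.23. The 3 with the smallest unadjusted p were Casp8, the initiator caspase of this arm (0.15, SE 0.150), Traf2, an adaptor of TNF receptors (0.23, SE 0.240), and Fas, the receptor itself (-0.10, SE 0.144). For all 3 genes the groups overlapped.

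Among 19 tested of 26 regulators and partners of BCL2 proteins, 9 lay above and 10 below 0, with a median of 0.00. Bag3, a co-chaperone that binds BCL2, stood at 8.80, 8.35 and 8.85 in Flvcr-/- and 8.36, 8.18 and 8.12 in Flvcr+/+ cells. Flvcr-/- replicate 2 lay just below the highest Flvcr+/+ array, and the log2 fold change was 0.44 (SE 0.187, 95% interval 0.04 to 0.84, adjusted p = 0.9997 by limma). Foxo3, a transcription factor known to induce Bcl2l11 and Bbc3, stood at 6.83, 6.65 and 6.85 in Flvcr-/- and 7.31, 7.32 and 6.87 in Flvcr+/+ cells, a log2 fold change of -0.39 (SE 0.219). Its groups were just apart, and it did not pass (adjusted p = 0.9997 by limma). Myc, a growth regulator that primes cells for death, was dim, with 5.07, 5.90 and 5.84 in Flvcr-/- and 4.95, 5.03 and 5.54 in Flvcr+/+ cells. Its probe was detected on 2 Flvcr-/- arrays and 1 Flvcr+/+ array, and the groups overlapped.

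**Figure D5:**
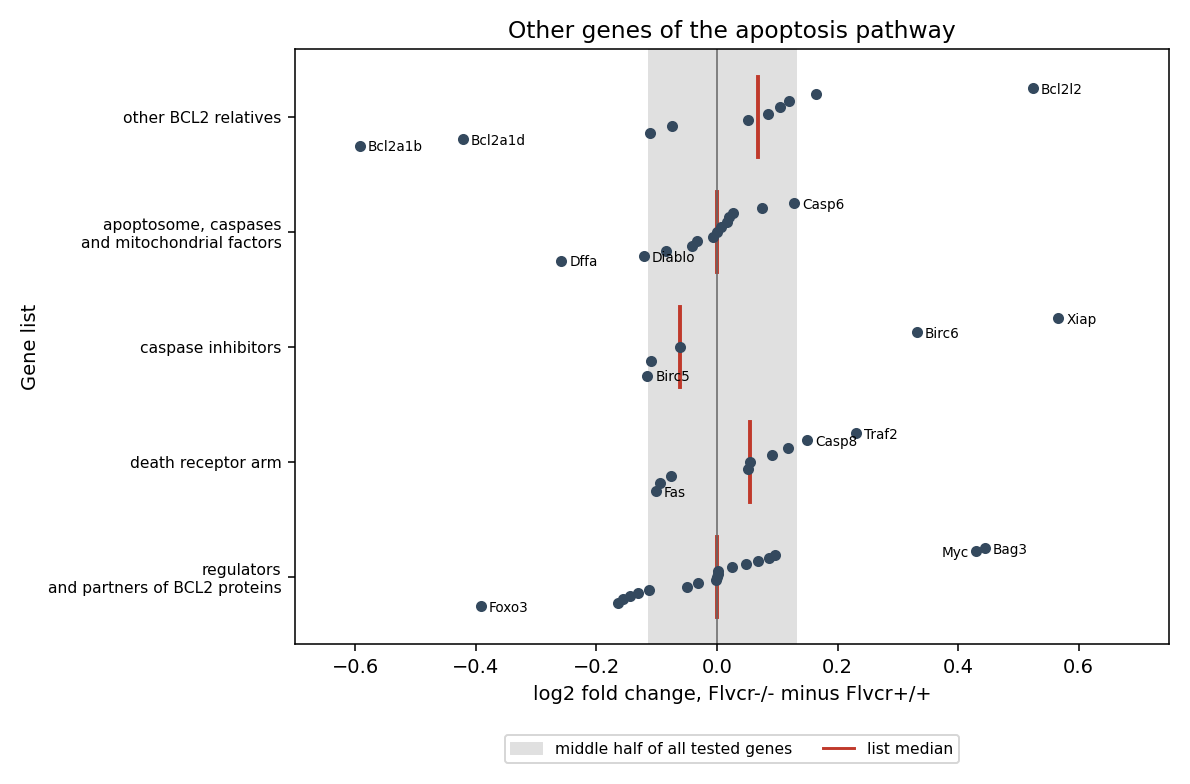
Log2 fold changes (Flvcr-/- minus Flvcr+/+, x axis) of the 56 tested genes in 5 apoptosis pathway lists, 1 point per gene, with list medians in red and the middle part of all 8808 genes (-0.11 to 0.13) in grey; the 3 genes of each list with the smallest unadjusted p are named. Most points lie within or near the grey band, with Bcl2l2 at 0.52 and Bcl2a1b at -0.59; the point of Xiap, detected on 0 Flvcr+/+ arrays, is a fitted value and no bound.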

How the data were processed

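The deposited non-normalized table held probe intensities on a linear scale and a detection p-value per probe and array, per the file headers. The second deposited table held log2 values that equalled the log2 of quantile-normalized intensities to within 5.00e-09; lumi is named, with no version, per the submitters' processing notes. Genome build, chip and scan date are not given in the sources used here.

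Arrays were grouped by sample title. The neqc function of limma 3.58.1 (R 4.3.3, offset 16) corrected the background, quantile-normalized the arrays and took log2. Tested were the 15448 probes detected (p under 0.05) on 3 or more arrays, by lmFit and eBayes (2-sided, variance trend on), with Benjamini-Hochberg adjustment over all of them. Dim probes have understated folds on this scale. Members were matched by platform symbol and other genes by symbols updated through RefSeq (GRCm38.p6); 35784 of 45281 probes had 1 symbol, 0 had several and 9497 had none. A list gene is its brightest tested probe. The members and lists were chosen with earlier results of these data known. Named were all family probes, Flvcr1, up to 4 passing genes of each list or else the 3 with the smallest unadjusted p, the 3 genes most like the family's most variable member, and markers of other cells; Trp53, Pmaip1, Apaf1, Cycs and several markers were named after their values were seen.

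On simulated arrays of 15500 tested probes, 19.4%, 53.7% and 98.5% of probes changed 1.5-fold, 2-fold and 4-fold were called, with 4 false calls. The changed probes were drawn without the dimmest tested probes, and the largest SDs were capped. These shares may therefore be too high for the dim family probes. Alternatives changed the background correction, offset, normalization, source of values, filter, variance model, weights, threshold, a replicate block and each array left out. The correlations of deviations of same-numbered arrays were -0.15, 0.09 and 0.11, so arrays were not treated as paired. Figures were drawn with matplotlib 3.10.9.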

Additional observations from a re-analysis of the deposited data

How the results depend on the processing

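The count of family probes called was 0 in the main setting and in all 18 alternatives, with a smallest adjusted p of 0.327 (array weights). The pro-survival minus pro-death difference was -0.15 to -0.04 in its 17 alternatives; the variance trend and the threshold do not enter it. Among all tested probes, 26 were called, against 6 without the variance trend, 51 with array weights, 25 with the replicate block and 6 to 24 with 1 array left out. Without both arrays of a male pattern (Flvcr-/- replicate 1 and Flvcr+/+ replicate 3), an alternative chosen after the data were seen, 110 were called; with sex pattern as a covariate, 28. The cause of these moves was not tested. The main fit did not pair arrays by replicate number, and the labels do not say whether the numbers mark pairs. Of the 6 arrays 4 correlated best with the array of their own number, a hint from the data only. The replicate block called 0 family probes. Small differences changed sign in 22 cases, none called. Leaving out 1 array gave -0.32 to 0.12 for Bcl2 ILMN_2682162, -0.24 to 0.17 for Bcl2l1 ILMN_2647885, -0.16 to 0.0009 for Mcl1, -0.24 to 0.16 for Bcl2l11 ILMN_1229255, -0.087 to 0.099 for Bcl2l11 ILMN_2590638 and -0.046 to 0.067 for Bid. The other tested probes kept their direction but also moved: 0.089 to 0.37 for Bcl2 ILMN_1249021, -0.15 to -0.052 for Bcl2l1 ILMN_2698430, -0.33 to -0.25 for Bcl2l1 ILMN_2742557, -0.42 to -0.12 for Bcl2l11 ILMN_3157568, 0.061 to 0.26 for Bad and -0.16 to -0.014 for Bmf, with Bak1 and Bbc3 given above. With array weights the values were -0.20 for Bcl2l1 ILMN_2647885 and 0.047 and 0.036 for Bcl2l11 ILMN_1229255 and ILMN_2590638. With median scaling these 2 Bcl2l11 probes gave 0.0065 and 0.018; ILMN_1229255 gave 0.0046 without background correction and with the deposited log2 values, and 0.0032 with an offset of 50. The regulators' median was -0.069 with array weights and -0.081 to 0.023 with 1 array left out, and with 1 array left out the medians were -0.128 to 0.058 for the caspase inhibitors, -0.031 to 0.060 for the BCL2 relatives, -0.010 to 0.070 for the death receptor arm and -0.055 to 0.046 for the apoptosome list. Signal over background limits the dim probes of Bcl2, Bak1, Bcl2l11 and Bbc3, whose intensities lay not far above the array medians.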
